A study of Mus musculus with 12 samples.

Results

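The response of fibro/adipogenic progenitors (FAPs) to the growth factor PDGF-AA was measured while the cells carried an antisense oligonucleotide (AMO) against the intronic polyadenylation site of Pdgfra. By their titles, 2 arrays hold cells given pA AMO and 50 uM PDGF-AA and 2 hold cells given pA AMO and 0 uM PDGF-AA, so 4 of the 12 arrays of the series carry this response. The other 8 arrays hold the same contrast with a control AMO and with an AMO against an intronic Pdgfra 5' splice site (5'ss AMO), 4 arrays each. All cells came from uninjured hindlimb muscle of wild-type male C57/Bl6 mice aged 8 to 12 weeks, and each replicate pools cells of 2 mice. After 2.5 days of growth the cells were transfected with 10 µM AMO for 48 hours, then transfected again and kept for 48 hours with or without PDGF-AA, a dose given here as labelled. RNA was read on Affymetrix Mouse Gene 1.0 ST arrays. Every group had an AMO, so "untreated" below means AMO without PDGF-AA, and no group without AMO was analysed.

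PDGF-AA is a dimeric ligand that binds the receptor tyrosine kinase PDGFRα, which signals through the RAS-MAPK, PI3K-AKT and PLCγ routes to immediate early genes and to growth, migration and matrix programmes. FAPs are the PDGFRα-positive mesenchymal cells of skeletal muscle, which support regeneration and can become matrix-producing fibroblasts or adipocytes. Polyadenylation within an intron gives a shortened Pdgfra transcript that lacks the part encoding the kinase domain. An AMO on the intronic site is meant to favour the full-length transcript, and an AMO on the upstream splice site to favour the short one. The deposited gene-level value cannot separate the 2 transcripts, so it does not check what the AMO did.

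Values are log2 expression after RMA, so a difference of 1 is 2-fold. The array medians of the 4 pA AMO arrays lay between 6.08 and 6.18, within the 6.04 to 6.22 of all 12. Of 14 FAP and fibroblast markers, 13 had a mean at or above 6.10, the level under which 40 percent of the named clusters lie, and Tcf21 did not. Myogenic markers were present as well, with 28 of 31 at or above that level. Of 10 endothelial and of 10 macrophage and leukocyte markers, 5 each were at or above it and 5 each below. Pecam1, Kdr, Ptprc, Adgre1 and Csf1r were among those below. With 40 percent of all named clusters below that level, this does not tell whether such cells were present.

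Some members of the interferon, hypoxia and glycolysis groups described below carry short recognition sequences upstream of their starts. The 6 stretches shown are examples, chosen among genes that were higher with PDGF-AA in both replicates because they hold the letters. They are not in every case the genes with the largest differences, though Car9 had the largest of the hypoxia list (0.79). Cxcl10, with the largest of the interferon list (1.73), holds 1 ISRE-like match and is not shown. Ifit2 and Cmpk2, which differed by 1.33 and 1.10, hold no ISRE-like match in their windows. The stretches are 250 bases before the annotated start, 5′ to 3′ on the gene's strand, from RefSeq on GRCm38.p6. Capitals mark GAAANNGAAA or its reverse complement, a pattern like the interferon-stimulated response element (ISRE), in the first 3, and ACGTG or its reverse complement, the core of the hypoxia response element (HRE), in the last 3.
Rsad2, chr12:26456453-26456702, minus strand: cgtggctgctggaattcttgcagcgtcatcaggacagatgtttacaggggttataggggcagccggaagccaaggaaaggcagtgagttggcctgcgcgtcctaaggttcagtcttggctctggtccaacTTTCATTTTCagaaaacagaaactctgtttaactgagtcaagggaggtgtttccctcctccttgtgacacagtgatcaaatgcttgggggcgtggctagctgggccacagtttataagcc
Ifit1, chr19:34640639-34640888, plus strand: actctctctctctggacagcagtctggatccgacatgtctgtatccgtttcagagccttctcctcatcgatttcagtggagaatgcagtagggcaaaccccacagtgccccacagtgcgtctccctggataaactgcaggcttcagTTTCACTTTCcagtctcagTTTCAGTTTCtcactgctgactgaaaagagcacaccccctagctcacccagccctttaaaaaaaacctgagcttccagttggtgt
Ifit3, chr19:34583279-34583528, plus strand: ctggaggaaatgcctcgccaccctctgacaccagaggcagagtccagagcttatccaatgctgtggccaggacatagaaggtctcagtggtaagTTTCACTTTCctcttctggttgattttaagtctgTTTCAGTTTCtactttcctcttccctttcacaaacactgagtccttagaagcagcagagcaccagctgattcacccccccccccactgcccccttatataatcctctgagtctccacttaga
Car9, chr4:43506776-43507025, plus strand: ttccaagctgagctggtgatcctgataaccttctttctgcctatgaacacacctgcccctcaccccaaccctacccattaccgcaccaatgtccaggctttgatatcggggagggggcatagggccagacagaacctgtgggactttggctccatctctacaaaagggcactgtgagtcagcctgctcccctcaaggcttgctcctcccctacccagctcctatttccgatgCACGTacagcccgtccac
Bnip3, chr7:138909507-138909756, minus strand: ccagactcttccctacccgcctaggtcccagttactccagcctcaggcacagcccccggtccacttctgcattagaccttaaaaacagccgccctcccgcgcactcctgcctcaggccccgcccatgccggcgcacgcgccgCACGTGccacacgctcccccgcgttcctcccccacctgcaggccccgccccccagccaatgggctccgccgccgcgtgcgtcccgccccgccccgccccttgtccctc
Slc16a3, chr11:120948817-120949066, plus strand: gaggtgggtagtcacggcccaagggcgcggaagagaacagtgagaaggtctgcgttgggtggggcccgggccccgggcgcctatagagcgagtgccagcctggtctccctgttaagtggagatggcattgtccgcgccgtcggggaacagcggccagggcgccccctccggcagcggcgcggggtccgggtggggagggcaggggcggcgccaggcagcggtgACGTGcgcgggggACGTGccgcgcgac
The ISRE-like letters start 120 bases before the start in Rsad2, and at 104 and 85 bases in Ifit1 and 156 and 122 bases in Ifit3. The HRE core lies 18 bases before the start in Car9 and 27 and 14 bases before it in Slc16a3. In Bnip3 the letters CACGTG read as the core on both strands and count as 2 overlapping hits. Over windows of 300 bases (250 before and 50 after the start), the ISRE-like pattern was found on either strand in 11 of 21 windows of the interferon list (52.4%), against 1131 of all 32851 windows (3.44%). The HRE core was found in 15 of 26 windows of the glycolysis list (57.7%) and 14 of 23 of the hypoxia list (60.9%), against 19.6% of all windows. By gene these were 11 of the 18 matched interferon genes, 12 of 16 glycolysis genes and 13 of 17 matched hypoxia genes. These are matches of letters and no measure of binding.

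With pA AMO, cells given PDGF-AA had lower levels of the matrix genes Comp, Egfl6 and Fmod in both replicates, by log2 differences of -1.36, -0.94 and -0.84. They had higher levels of Car9, a carbonic anhydrase known as a hypoxia target, by 0.79, and of glycolytic genes such as Hk2 and Slc16a3. Interferon-stimulated genes such as Rsad2 and Cxcl10 were higher too, far more in replicate 1 than in replicate 2. Myogenic markers were lower in both. None of these differences passed the test.

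At an adjusted p under 0.05 limma called 0 of 21789 clusters (0%), and the smallest adjusted p was 1.0. An unadjusted p under 0.05 was reached by 517 clusters (2.37%), fewer than the 5 percent that no change at all would give. With the replicate number as a block, 0 (0%) passed as well, with a smallest adjusted p of 0.164 (Comp), and 1286 (5.90%) had an unadjusted p under 0.05. The median standard error of a difference was 0.14, and 0.099 with the block. What follows therefore describes differences in 2 pairs of arrays, with limma's standard error (SE) beside the main ones. That SE is from the fit without the block, so it ignores the pairing and does not measure the spread of the 2 pair differences. With the block it was smaller for some genes, such as Sparcl1 (0.083 against 0.25). For others, such as Cxcl10, it was larger (0.65 against 0.63). Every gene named with pA AMO had a limma adjusted p of 1.0 without the block and at least 0.164 with it.

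Within each replicate number the PDGF-AA array minus the untreated array gives 1 pair difference. A cluster was counted where both pair differences had the same sign and were each at least 0.25, which held for 174 clusters (0.799%) upward and 258 (1.18%) downward. The 174 stand for 158 genes and the 258 for 255. Treated and untreated arrays did not overlap in 154 of the 174 and in 206 of the 258. These clusters were picked for 2 differences of the same sign, which favours such separation. With 2 arrays against 2, groups can also separate without any effect. The share of all clusters without overlap was not counted, so a lack of overlap named below only describes the values. Pair 1 had the wider spread, with an SD over clusters of 0.20 against 0.16 in pair 2, and 504 clusters differed by at least 0.5 in pair 1 against 184 in pair 2. Across the 21789 clusters the pair differences correlated at r = 0.12, and across the 13073 clusters at or above the 40 percent mark at r = 0.31. These coefficients are descriptions across genes, which are not independent, and both pairs come from arrays normalized together.

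**Figure D1:**
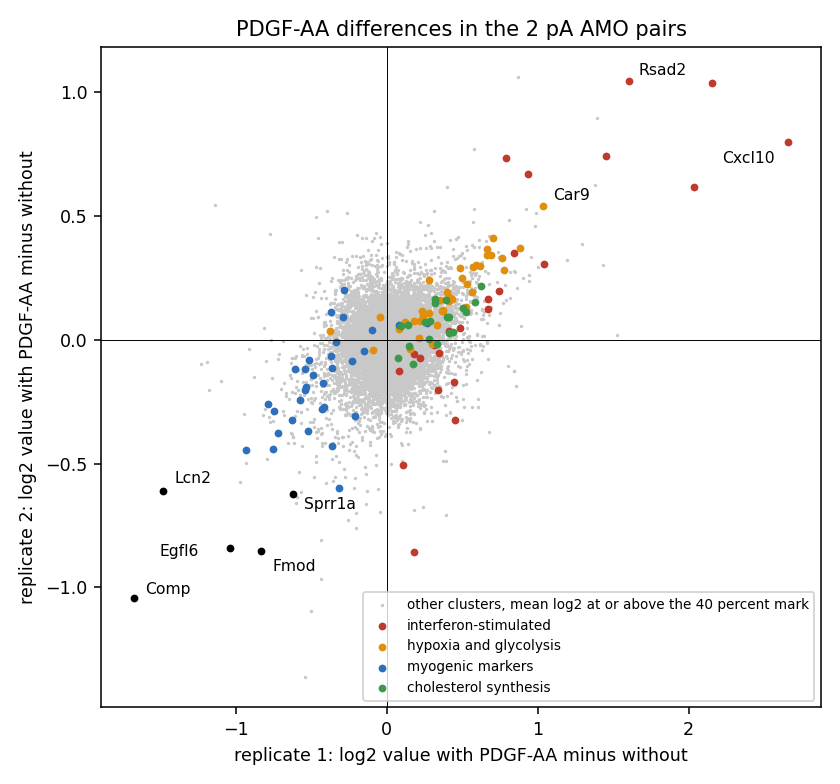
PDGF-AA difference (log2 value with PDGF-AA minus without) in replicate 1 (x axis) and replicate 2 (y axis) with pA AMO, 1 point per transcript cluster or listed gene. Comp lies at -1.68 and -1.04, Car9 at 1.04 and 0.54, and Cxcl10 at 2.66 and 0.80, while myogenic markers (blue) lie mostly below 0 in both.

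Of the ligands and receptors, Pdgfra itself (cluster 10522503) read 12.72 and 12.80 untreated and 12.75 and 12.81 with PDGF-AA in replicates 1 and 2. The 4 values lie within 0.1, and the groups overlap (difference 0.015, SE 0.087). Pdgfd, a ligand of PDGFRβ, read 8.27 and 8.31 untreated and 8.71 and 8.54 with PDGF-AA. Both treated arrays were above both untreated ones (0.34, SE 0.11). Pdgfrl, a receptor-like protein without a kinase, was lower in both pairs, by -0.11 and -0.41. Pdgfrb, the other receptor, was higher in pair 1 (0.33) and close to 0 in pair 2 (-0.051). The ligand genes Pdgfa (-0.22, -0.018), Pdgfb (-0.32, 0.095) and Pdgfc (-0.33, 0.028) were lower in pair 1 and within 0.1 of 0 in pair 2. Of the 7 PDGF genes, 0 were counted in either direction, against 0.799% upward and 1.18% downward of all clusters. With so few genes, 0 is close to those shares.

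Genes that relay the receptor's signal showed little difference at 48 hours. Of 20 measured adaptors, kinases and STATs, 0 were counted, against 0.799% upward and 1.18% downward of all clusters. An unadjusted p under 0.05 was reached by 0, against 2.37%. In a list this short, 0 is close to those shares. The median difference was 0.025, with a range from -0.080 for the adaptor Gab1 to 0.17 for the MAPK kinase Map2k1. Immediate early genes and MAPK feedback inhibitors had 0 of 27 counted, with 14 above 0, 13 below and a median of 0.016. An unadjusted p under 0.05 was reached by 4 of these 27, against 2.37% of all clusters, and by 5 with the block, against 5.90%. Within that list Spry2, a feedback inhibitor of receptor tyrosine kinases, read 7.53 and 7.93 untreated and 7.99 and 8.15 with PDGF-AA (0.34, SE 0.14). The treated arrays were the 2 highest. Ier3 (0.25) and Phlda1 (0.25) were also higher in both pairs. The stress-induced transcription factor Atf3 was lower, from 9.27 and 9.24 to 8.71 and 9.08, as was the ERK phosphatase Dusp5 (-0.28 and -0.20). Fos was at -0.34 in pair 1 and 0.017 in pair 2.

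Glycolysis and glucose uptake genes were higher with PDGF-AA. All 16 measured members had a mean difference above 0 (median 0.27, against -0.0064 over all clusters, where 47.4% were above 0), and 15 were above 0 in both pairs. The count of both pairs by 0.25 took 6 of 16, against 0.799% of all clusters. The lists were chosen with earlier results of these data known. List counts set beside the share of all clusters, here and below, therefore only describe the values. Hk2, which phosphorylates glucose, read 8.42 and 8.44 untreated and 9.12 and 8.85 with PDGF-AA (0.56, SE 0.15). The aldolase Aldoc went from 7.47 and 7.67 to 8.23 and 7.99 (0.55, SE 0.13). Slc16a3, the lactate exporter whose upstream sequence is printed above, went from 9.52 and 9.58 to 10.18 and 9.92 (0.50, SE 0.10). For each of these 3 the treated arrays were both above the untreated ones, and pair 1 had the larger difference.

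The other 3 counted glycolysis genes were Pfkfb3, which makes the activator of phosphofructokinase (0.62 and 0.30), the liver phosphofructokinase Pfkl (0.57 and 0.30) and phosphoglycerate kinase Pgk1 (0.50 and 0.25). Pgk1 is read by 3 clusters with near-identical values, and copies of the gene cannot be told apart. The glucose transporter Slc2a1 was at 0.41 and 0.16, Tpi1 at 0.40 and 0.19 and lactate dehydrogenase Ldha at 0.23 and 0.12. At the low end were the muscle phosphofructokinase Pfkm (0.022), Hk1 (0.095) and Pfkp (0.11). A second Hk1 cluster gave 0.27.

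Hypoxia-inducible genes outside glycolysis were higher as well. Of 23 measured members, 21 had a mean difference above 0 (median 0.29), 7 were counted upward, against 0.799% of all clusters, and 0 downward. Car9 (cluster 10504337) read 7.11 and 7.43 untreated and 8.14 and 7.97 with PDGF-AA (0.79, SE 0.16). Bnip3, a mitophagy receptor, went from 10.91 and 11.15 to 11.58 and 11.52 (0.52, SE 0.11). Pdk1, which blocks pyruvate entry into mitochondria, went from 8.93 and 9.23 to 9.62 and 9.58 (0.52, SE 0.13). In all 3 the treated arrays were above both untreated ones, and the treated values of the 2 replicates lay closer to each other than the untreated ones.

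Also counted were Higd1a, a mitochondrial protein of the hypoxia response (0.88 and 0.37), the selenium-binding protein Selenbp1 (0.78 and 0.28), the prolyl hydroxylase Egln3 (0.59 and 0.30) and the oxidase Ero1a of the endoplasmic reticulum (0.49 and 0.29). Bnip3 and Higd1a each have a second, dimmer cluster, at 0.59 and 0.26 for Bnip3 and 0.60 and 0.17 for Higd1a, so copies of these genes may share probes. Not every hypoxia gene was higher: Vegfa was at 0.062, Adm at 0.059, Ndrg1 at -0.065 and Angptl4 at -0.17. Leaving out each pA AMO array in turn kept the glycolysis median between 0.22 and 0.35 and the hypoxia median between 0.22 and 0.35.

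**Figure D2:**
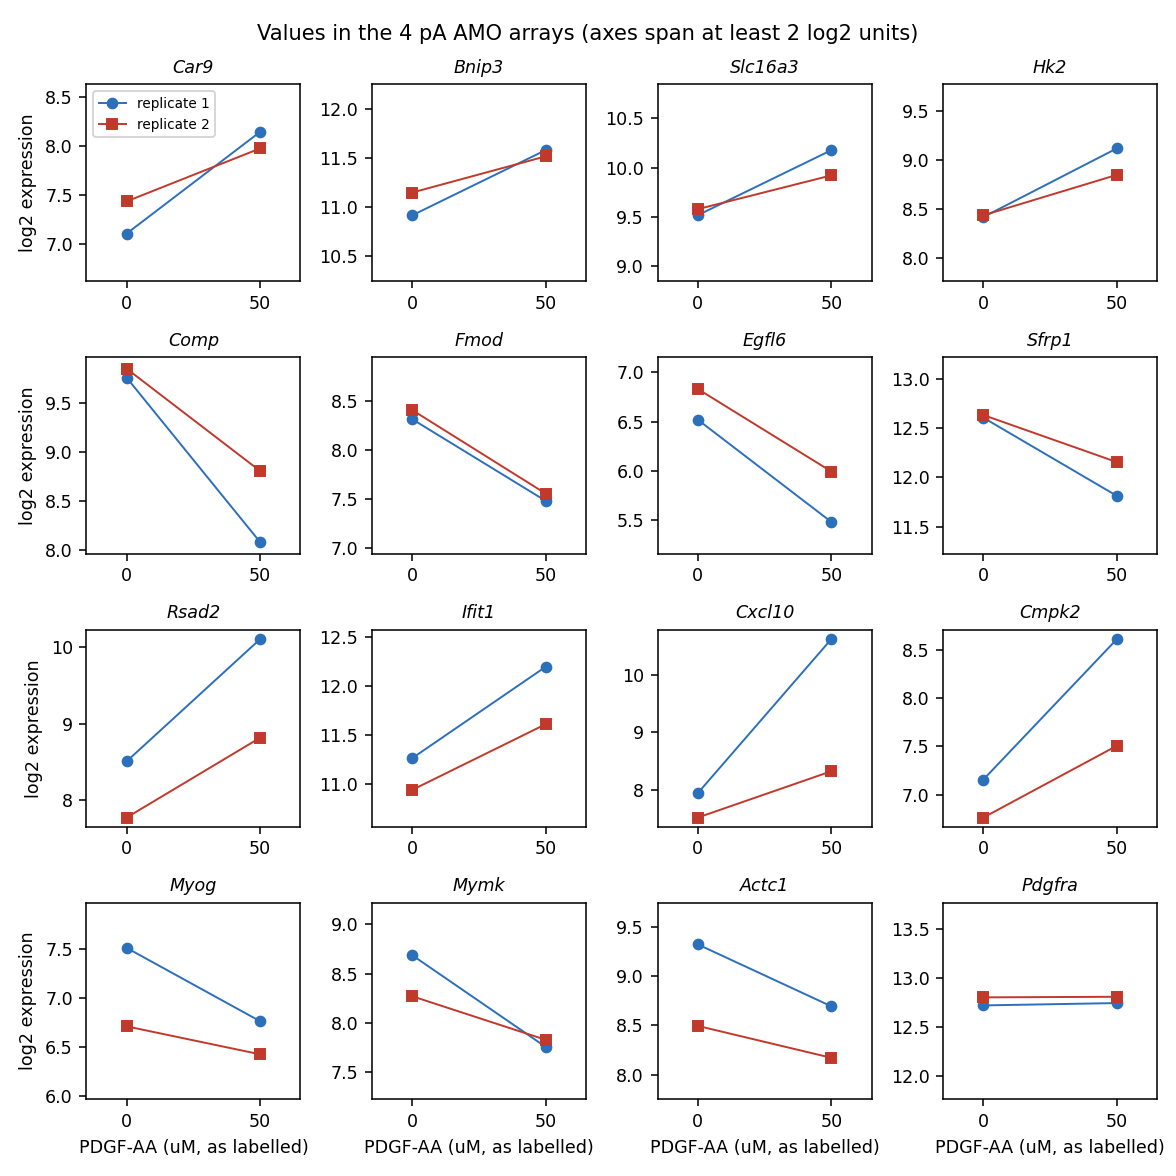
Log2 expression (y axis) at 0 and 50 uM PDGF-AA (x axis) in the 4 pA AMO arrays for 16 genes, with a line joining each replicate's 2 arrays. Car9, Bnip3, Slc16a3 and Hk2 slope upward in both replicates, Comp, Fmod, Egfl6 and Sfrp1 downward, and Pdgfra stays between 12.72 and 12.81.

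Sterol synthesis genes were higher by smaller steps. All 20 measured members of the cholesterol list had a mean difference above 0 (median 0.23), and 16 were above 0 in both pairs. Of these 20, 0 were counted, against 0.799% upward and 1.18% downward of all clusters. The median was 0.33 in pair 1 and 0.074 in pair 2, and it was 0.086 without the PDGF-AA array of replicate 1. Lss, which closes the sterol ring, read 8.58 and 8.73 untreated and 9.20 and 8.95 with PDGF-AA (0.42, SE 0.13). Its treated arrays were the 2 highest. Idi1 (0.58 and 0.15) and Msmo1 (0.51 and 0.13), both enzymes of the same pathway, had most of their difference in pair 1, and Dhcr7 (0.0010), Mvk (0.038) and Pmvk (0.061) were lowest. Of 11 fatty acid synthesis genes, 10 were above 0 (median 0.12) and 0 were counted, against the same shares. The desaturases Scd2 (0.50 and 0.14), Scd1 (0.47 and 0.13) and Fads2 (0.34 and 0.17) led, and Me1 was at -0.045.

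Interferon-stimulated genes had the largest single differences, and these lay mainly in replicate 1. Of 24 measured members, 21 had a mean difference above 0, 14 were above 0 in both pairs, 9 were counted upward, against 0.799% of all clusters, and 0 downward. The median was 0.33, made of 0.58 in pair 1 and 0.086 in pair 2. Without the PDGF-AA array of replicate 1 it was 0.003, and without that of replicate 2 it was 0.62.

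Cxcl10, a chemokine that attracts T cells, read 7.95 and 7.53 untreated and 10.61 and 8.33 with PDGF-AA (1.73, SE 0.63). Rsad2, the antiviral enzyme viperin, read 8.51 and 7.77 untreated and 10.11 and 8.82 with PDGF-AA (1.32, SE 0.53). Ifit2, an RNA-binding antiviral protein, read 7.77 and 7.88 untreated and 9.81 and 8.49 with PDGF-AA (1.33, SE 0.40). In each of these the 2 treated arrays were above both untreated ones, with replicate 1 the highest of the 4. Mx1, an antiviral GTPase whose mean of 5.97 is below the 40 percent mark, went from 5.99 and 5.49 to 8.15 and 6.53. The nucleotide kinase Cmpk2 (1.46 and 0.74), Ifit1 (0.93 and 0.67) and Ifit3 (0.79 and 0.73) were also counted, as were Oasl1 (1.04 and 0.30) and Mx2 (0.84 and 0.35). Ifit3b (1.39 and 0.90) is a near-identical copy of Ifit3, so the pair may share probes. Iigp1, an interferon-induced GTPase outside the list, was at 0.81 and 0.49.

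Other genes of this response went the other way in replicate 2. The transcription factor Irf7 read 11.12 and 11.07 untreated and 11.30 and 10.21 with PDGF-AA, so it was higher by 0.18 in pair 1 and lower by -0.85 in pair 2. The membrane tether Bst2 was at 0.10 and -0.51. Ifi27l2a, an interferon-induced mitochondrial protein outside the list, was lower in both, from 10.41 and 10.53 to 9.87 and 9.17. The chemokine gene Ccl5 was also lower in both, from 8.68 and 8.97 to 8.47 and 8.27. The averaged level of the 24 genes, relative to each gene's mean over 12 arrays, was 0.90 in the PDGF-AA array of replicate 1, the highest of the 12. It was 0.10, -0.14 and 0.050 in the other 3 pA AMO arrays, the last with PDGF-AA, and lay between -0.12 and 0.28 with control AMO. With 5'ss AMO it went with PDGF-AA from -0.55 to -0.56 in replicate 1 and from -0.24 to 0.047 in replicate 2. Of 21 inflammatory cytokines and chemokines, taken apart from this list, 9 were above 0 and 12 below, with a median of -0.038. Counted were 0, against 0.799% upward and 1.18% downward of all clusters.

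**Figure D3:**
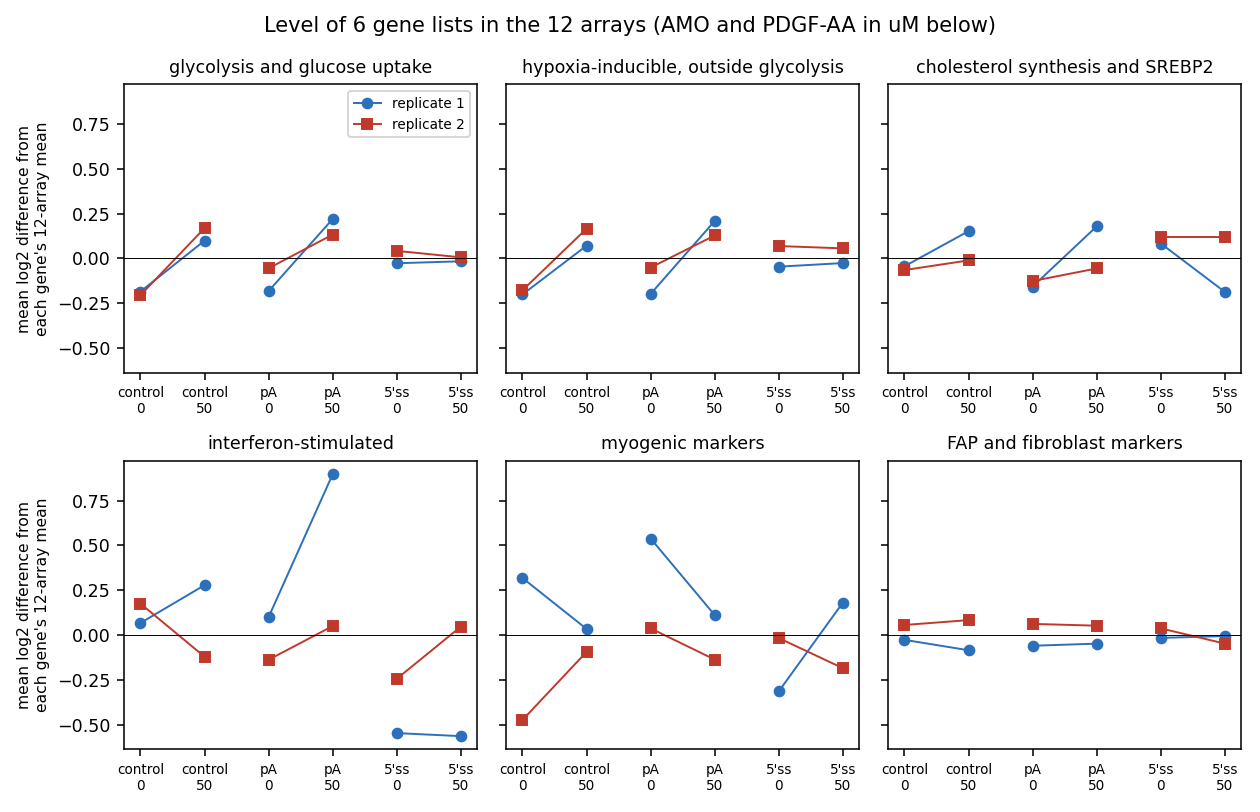
Averaged log2 level of 6 gene lists in each of the 12 arrays, relative to each gene's mean over the 12 arrays (y axis), by AMO and PDGF-AA in uM (x axis), with lines joining arrays of 1 replicate. The interferon level of the PDGF-AA array of pA AMO replicate 1 stands at 0.90, while the glycolysis level is higher with PDGF-AA in both replicates with pA and with control AMO.

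Several matrix genes were among the 15 lowest with PDGF-AA. Comp (cluster 10572378), a pentameric matrix protein that binds collagen, read 9.76 and 9.85 untreated and 8.08 and 8.81 with PDGF-AA (-1.36, SE 0.29). Fmod (cluster 10349947), a proteoglycan that binds collagen fibrils, read 8.32 and 8.41 untreated and 7.48 and 7.56 with PDGF-AA (-0.84, SE 0.14). Its pair differences, -0.83 and -0.85, were nearly equal. Egfl6, a secreted protein with EGF-like repeats, read 6.52 and 6.83 untreated and 5.48 and 5.99 with PDGF-AA (-0.94, SE 0.22). In these 3 the treated arrays were both below the untreated ones. Cilp, a cartilage matrix protein, was at -0.50 and -1.10, Thbs3 at -0.35 and -0.42 and the calcification inhibitor Mgp at -0.42 and -0.28.

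Other matrix genes were higher. Sparcl1, a matricellular relative of SPARC, read 9.75 and 10.20 untreated and 10.33 and 10.73 with PDGF-AA (0.56, SE 0.25). Its pair differences of 0.58 and 0.53 were alike, and the groups did not overlap, though replicate 2 untreated and replicate 1 treated lay close together. The basement membrane protein Nid1 (0.29 and 0.32) and the proteoglycan Ogn (0.49 and 0.34) were also counted, and Podn, another small proteoglycan, was counted downward (-0.31 and -0.28). In all, 2 of 25 other matrix genes were counted upward and 4 downward (medians 0.065 and -0.052 in pairs 1 and 2), and 1 and 2 of 12 small leucine-rich proteoglycans, against 0.799% and 1.18% of all clusters.

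Of 17 collagens, 10 were above 0 (median 0.079). Counted were 0 upward and 1 downward, the fibril-associated Col14a1 (-0.50 and -0.25), against 0.799% and 1.18% of all clusters. Col8a1 was at 0.55 and 0.24, while Col1a1 (0.079, SE 0.18) and Col3a1 (0.12, SE 0.087) were near 0. Of 19 matrix proteases and inhibitors, 4 were counted upward, against 0.799% of all clusters: urokinase Plau (0.36 and 0.37), Adamts12 (0.46 and 0.33), the collagenase Mmp13 (0.29 and 0.43) and Mmp11 (0.28 and 0.38). Plau read 9.89 and 9.95 untreated and 10.24 and 10.33 with PDGF-AA, with no overlap (0.36, SE 0.10). Mmp23 was counted downward, against 1.18% of all clusters, from 9.19 and 9.26 to 8.72 and 8.79 (-0.47, SE 0.12).

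Secreted regulators of growth were mostly lower. Of 10 Wnt antagonists, 8 were below 0 (median -0.15) and 2 were counted downward, against 1.18% of all clusters. Sfrp1 read 12.61 and 12.64 untreated and 11.81 and 12.16 with PDGF-AA (-0.64, SE 0.16), and Sfrp2 read 11.24 and 11.26 untreated and 10.47 and 10.81 with PDGF-AA (-0.60, SE 0.16). Both are secreted frizzled-related proteins, and neither overlapped between the groups. Sfrp4 was at -0.91 in pair 1 and -0.035 in pair 2. Draxin, a secreted guidance protein that also antagonizes Wnt and is outside the list, was at -0.94 and -0.50.

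Of 23 growth factor and IGF axis genes, 17 were below 0 (median -0.11), and 2 were counted downward, against 1.18% of all clusters. Gas6, the ligand of the TAM receptors, read 12.78 and 12.83 untreated and 12.16 and 12.44 with PDGF-AA (-0.51, SE 0.12). Igf1 read 9.71 in both untreated arrays and 9.41 and 9.32 with PDGF-AA (-0.34, SE 0.13). Both were without overlap. The IGF carrier Igfbp3 was at -0.13 and -0.61, and Ccn2, a TGF-β target, split by replicate at 0.68 and -0.37. Of 15 measured complement genes, 10 were below 0 (median -0.12) and 4 were counted downward, against 1.18% of all clusters. These were C7 (-0.78 and -0.31), factor B, Cfb (-0.48 and -0.55), C2 (-0.29 and -0.43) and C4b (-0.40 and -0.34), which shares sequence with its near-identical copy C4a. The growth factor median was -0.060 and the complement median -0.011 without the PDGF-AA array of replicate 1, and the Wnt antagonist median was -0.0050 without that of replicate 2.

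Several of the 15 lowest genes belong to none of these lists. The cornified envelope gene Sprr1a read 7.28 and 7.40 untreated and 6.66 and 6.77 with PDGF-AA (-0.62, SE 0.11). The iron-siderophore carrier Lcn2 went from 9.86 and 9.73 to 8.38 and 9.12 (-1.05, SE 0.32), and the membrane protein Susd2 from 11.30 and 11.44 to 9.81 and 10.83 (-1.05, SE 0.33). For all 3 the treated arrays were both lower. The myo-inositol transporter Slc5a3 was at -0.59 and -0.64, Wfdc17 at -0.98 and -0.58 and the adipokine gene C1qtnf3 at -0.58 and -0.53. Fabp5, a fatty acid carrier with 2 clusters, was at -0.60 and -0.66, but its treated value in replicate 2 (7.07) was above its untreated value in replicate 1 (7.05).

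Of the 15 highest, 6 are members of the interferon list and Car9 of the hypoxia list. The remaining 8 include Hsd3b6, a steroid dehydrogenase of a family with closely related members, which read 7.61 and 7.25 untreated and 8.48 and 8.31 with PDGF-AA (0.97, SE 0.38). Etfbkmt, a mitochondrial lysine methyltransferase, went from 5.74 and 5.84 to 6.32 and 6.61 (0.68, SE 0.14), while its other, dimmer cluster differed by 0.021. The retinoic acid carrier Crabp1 (0.92 and 0.53), the retrotransposon-derived gene Rtl3 (0.99 and 0.51) and Fgl2, a fibrinogen-like protein (0.57 and 0.48), complete the set with Ifit3b, Iigp1 and Sparcl1.

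Myogenic markers were lower with PDGF-AA in both replicates. Of 31 measured members, 29 had a mean difference below 0, 25 were below 0 in both pairs, and 11 were counted downward, against 1.18% of all clusters. The median was -0.33, with -0.42 in pair 1 and -0.17 in pair 2. Mymk, the fusion protein myomaker, read 8.69 and 8.27 untreated and 7.75 and 7.83 with PDGF-AA (-0.69, SE 0.31). Chrna1, an acetylcholine receptor subunit, went from 7.51 and 7.10 to 6.76 and 6.66, and the lineage factor Myod1 from 7.13 and 6.99 to 6.81 and 6.39 (-0.46, SE 0.18). For these 3 the groups did not overlap. For Myog, which drives differentiation, they did: it read 7.51 and 6.71 untreated and 6.76 and 6.42 with PDGF-AA (-0.52, SE 0.31). The structural genes Acta1 (-0.79 and -0.26), Actc1 (-0.63 and -0.33), Des (-0.72 and -0.38) and Myh1 (-0.52 and -0.37) were lower in both pairs, while Pax7, the satellite cell factor, was at -0.28 and 0.20.

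The averaged myogenic level differed between replicates by as much as it did with PDGF-AA. Relative to the mean over 12 arrays it was 0.54 and 0.037 in the untreated pA AMO arrays and 0.11 and -0.14 with PDGF-AA, against 0.32 and -0.47 in the untreated control AMO arrays. The median difference was -0.59 without the untreated array of replicate 2 and -0.056 without that of replicate 1. In RNA from a whole culture, fewer cells of a type and less RNA per cell cannot be told apart. The part of this shift in the other differences was not tested.

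Markers of other cells moved less. Of 14 FAP and fibroblast markers, 8 were above 0 (median 0.015), and Dpp4 was counted upward (0.52 and 0.38), against 0.799% of all clusters. Medians were 0.021 for 10 endothelial, -0.075 for 10 macrophage and leukocyte, -0.045 for 6 Schwann cell and -0.11 for 10 tendon markers, whose 2 counted members are Comp and Fmod, against 1.18% of all clusters. The macrophage and leukocyte median turned to 0.025 without the untreated array of replicate 1. Of 10 smooth muscle and pericyte markers 5 were below 0, and in both pairs 3 were below and 0 above. The 1 counted, downward against 1.18% of all clusters, is Des, also a myogenic marker. Their median was 0, and it lay between -0.11 and -0.005 when each pA AMO array was left out in turn. Scx, the tendon lineage factor, was at 0.012. Of 19 adipocyte genes, 13 were below 0 (median -0.10). The adipogenic factors Cebpa (-0.53 and -0.28) and Pparg (-0.57 and -0.23) and the droplet protein Plin1 (-0.57 and -0.43) were lower in both pairs, but levels of replicate 2 were above those of replicate 1 throughout, and the groups overlapped. The adipocyte median turned to 0.10 without the PDGF-AA array of replicate 1.

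Of 15 myofibroblast and contractile genes, 12 were below 0 (median -0.071), and the median was -0.22 without the PDGF-AA array of replicate 1 and 0.014 without that of replicate 2. Counted were 1 upward and 1 downward, against 0.799% and 1.18% of all clusters. The smooth muscle actin Acta2 read 9.76 and 9.44 untreated and 9.32 and 8.47 with PDGF-AA (-0.70, SE 0.47), without overlap, and the protease Fap was counted upward (0.47 and 0.41). Of 34 cell cycle genes, 27 were above 0, against 47.4% of all clusters (median 0.12). Counted upward were 2, against 0.799% of all clusters, the checkpoint kinase Bub1 (0.65 and 0.28) and cyclin D1, Ccnd1 (0.42 and 0.30). The cell cycle median was 0.070 without the untreated array of replicate 1. Thymidine kinase Tk1 was at 0.36 by its brighter cluster and -0.054 by the other. The remaining lists had medians near 0: 0.024 for 14 TGF-β genes, 0.0020 for 13 p53 targets and 0.013 for 20 genes of the unfolded protein and amino acid responses. Leaving out 1 pA AMO array also turned the sign of the medians of the p53, unfolded protein, immediate early, signal relay, inflammatory, other matrix, small proteoglycan, endothelial and FAP lists, all within 0.04 of 0.

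**Figure D4:**
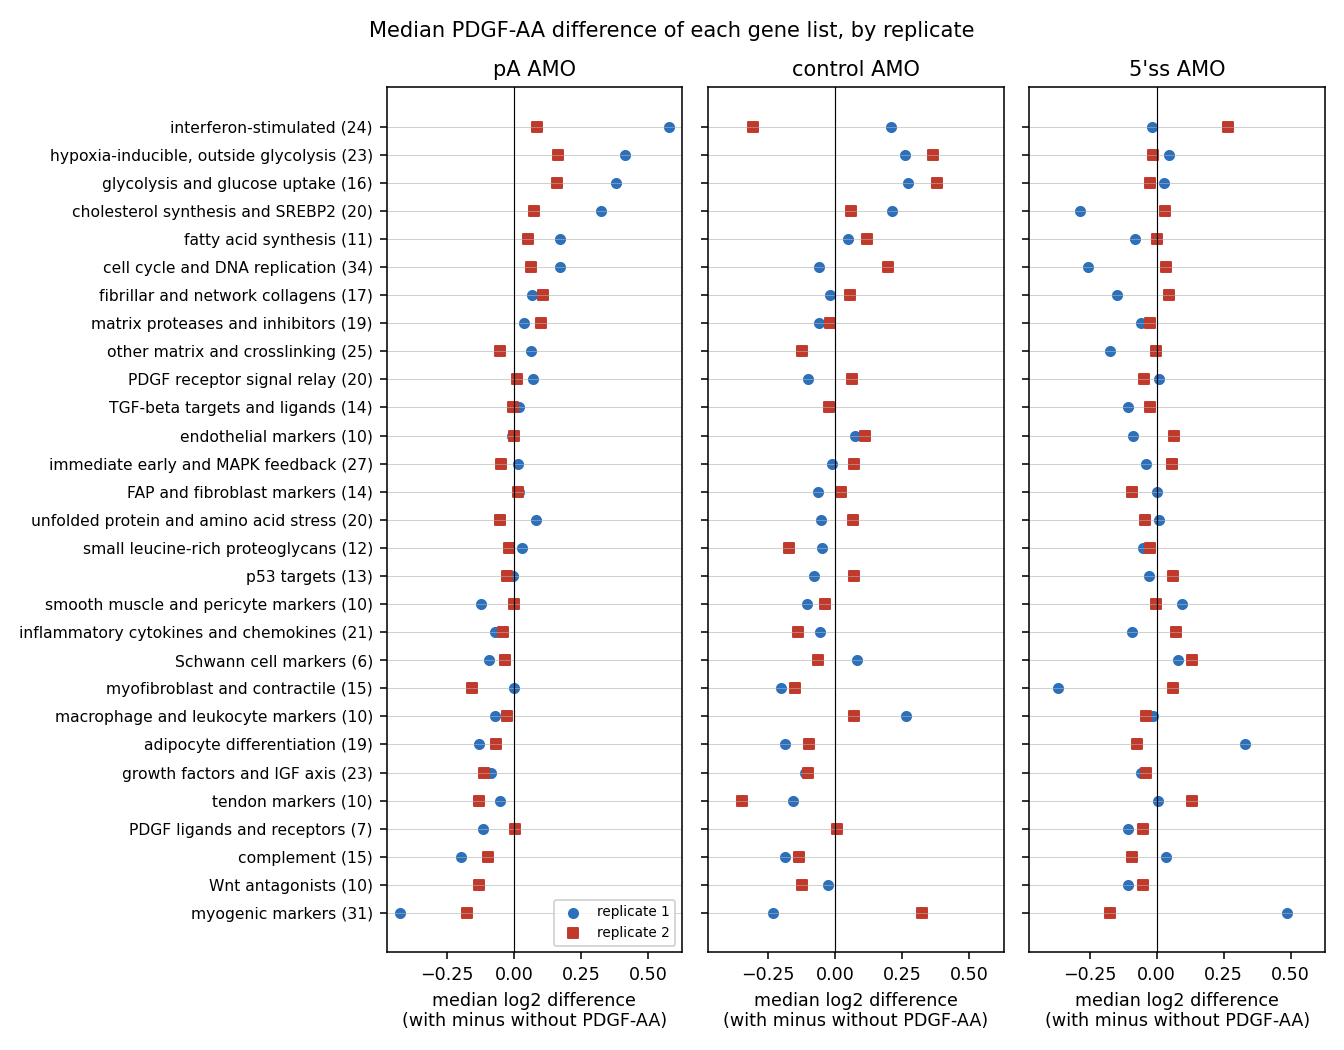
Median PDGF-AA difference (log2, x axis) of each gene list (number of measured genes in brackets) in replicate 1 (blue) and replicate 2 (red), for pA, control and 5'ss AMO. With pA AMO the hypoxia, glycolysis, cholesterol and interferon lists lie right of 0 and the myogenic list left of 0 in both replicates.

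Comparison with the control AMO asks which of these differences depend on the AMO. The differences share no array, though same-numbered replicates of all groups resemble each other. With control AMO, 588 clusters (2.70%) were counted upward and 387 (1.78%) downward, more than with pA AMO. Of the 174 upward with pA AMO, 49 were also upward with control AMO (28.2% of the 174 and 8.33% of the 588), and 4 were downward. Of the 258 downward, 68 were also downward (26.4% and 17.6%), and 8 were upward. All 15 lowest genes were lower in both control AMO pairs, against 24.9% of all clusters, and 14 of them were counted there, against 1.78%. Comp was at -1.50 and -1.19 with control AMO, Fmod at -0.81 and -0.61 and Egfl6 at -1.31 and -0.83.

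Of the 15 highest genes, 7 were higher in both control AMO pairs, against 30.9% of all clusters. They were Car9 (0.99 and 0.76), Sparcl1 (0.39 and 0.50), Crabp1 (0.77 and 0.36), Rtl3 (0.57 and 0.76) and Hsd3b6 (0.29 and 0.73). Ifit2, at 0.29 and 0.17, and Etfbkmt, at 0.15 and 0.39, are the other two. Of the other interferon-list members among the 15, Rsad2 (0.28 and -0.71), Cmpk2 (0.30 and -0.38), Ifit3 (0.52 and -0.46) and Ifit1 (0.41 and -0.39) had opposite signs in the control AMO pairs. Cxcl10 was lower in both (-0.20 and -0.74). The glycolysis and hypoxia medians were 0.35 and 0.31 with control AMO, close to those with pA AMO, and the cholesterol median was 0.12. The myogenic median was -0.23 and 0.33 in the 2 control AMO pairs.

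In limma's test of the difference between the PDGF-AA effects with pA and control AMO, 0 of 21789 (0%) were called. The smallest adjusted p was 1.0, and 564 clusters had an unadjusted p under 0.05. With the replicate block 0 passed (smallest adjusted p 0.45). The smallest p belonged to Stmn2, which encodes the tubulin-binding protein stathmin 2. It read 6.20 and 6.11 untreated and 6.59 and 6.73 with PDGF-AA with pA AMO, and 6.45 and 6.29 untreated and 6.10 and 5.93 with PDGF-AA with control AMO. The 2 effects thus had opposite signs in all pairs, and their difference was 0.87 (SE 0.15). Kank3, an actin regulator, was lower with pA AMO (-0.36 and -0.48) and higher with control AMO (0.081 and 0.26), a difference of -0.59 (SE 0.13). Mmp13 was higher with pA AMO and lower with control AMO (-0.14 and -0.70), a difference of 0.78 (SE 0.21). Dennd4a (0.86, SE 0.19) is 1 of 9 clusters with that symbol, and the interferon-induced GTPase Gbp11 (0.79, SE 0.21) resembles other Gbp genes. For Car9 the difference between the effects was -0.087 (SE 0.22), for Comp -0.017 (SE 0.41) and for Igf1 0.56 (SE 0.19) from values of Igf1 at -0.95 and -0.85 with control AMO.

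**Figure D5:**
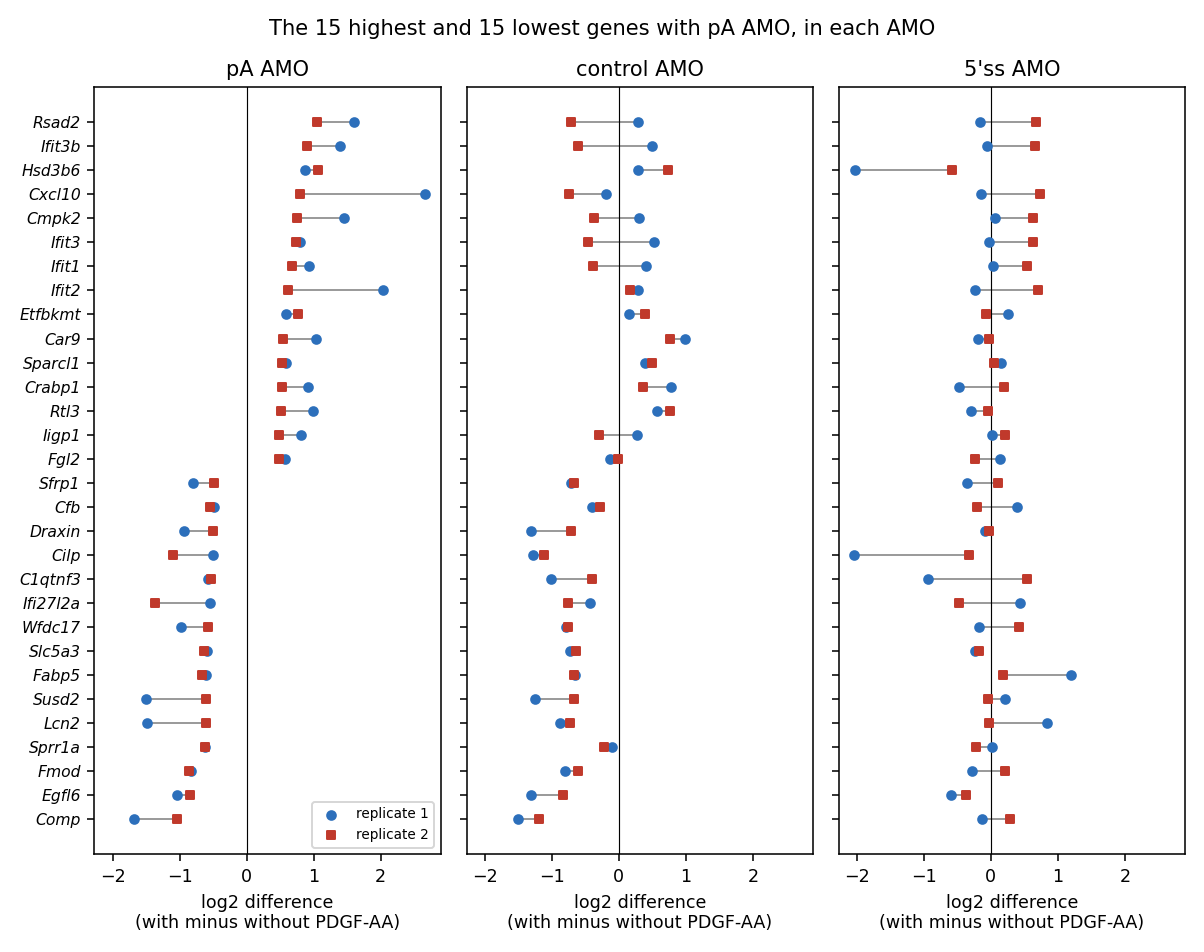
PDGF-AA difference (log2, x axis) of the 15 highest and 15 lowest genes with pA AMO, shown for pA, control and 5'ss AMO, with replicate 1 in blue and replicate 2 in red. All 15 lowest genes lie left of 0 in both control AMO pairs, against 24.9% of all clusters. In both 5'ss AMO pairs 4 of them do so, against 25.6% of all clusters.

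With 5'ss AMO, 157 clusters (0.721%) were counted upward and 130 (0.597%) downward. Of the 174 upward with pA AMO, 3 were shared (1.72% of the 174 and 1.91% of the 157) and 4 went the other way. Of the 258 downward, 5 were shared (1.94% and 3.85%) and 6 went the other way. Of the 15 lowest genes, 4 were lower in both 5'ss AMO pairs, against 25.6% of all clusters. Counted were 2, against 0.597% of all clusters, Egfl6 (-0.59 and -0.37) and Cilp (-2.04 and -0.32). Comp was at -0.13 and 0.28 there, Fmod at -0.28 and 0.21 and Car9 at -0.18 and -0.021. The glycolysis median was 0.021 with 5'ss AMO, the hypoxia median -0.0020 and the cholesterol median -0.14. The interferon median was 0.14 with 5'ss AMO, with -0.018 and 0.27 in pairs 1 and 2. Of the 24 interferon genes, 20 had a mean difference above 0 there, against 48% of all clusters.

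The test of the difference between the effects with pA and 5'ss AMO gave 0 of 21789 (0%), with a smallest adjusted p of 1.0 in limma, 0.875 with the replicate block, and 418 at an unadjusted p under 0.05. Hsd3b6 had the smallest p, with pair differences of 0.87 and 1.06 against -2.03 and -0.59 under 5'ss AMO (difference 2.27, SE 0.53). Lss was at 0.62 and 0.22 against -0.39 and -0.28 (0.76, SE 0.18), and Fmod differed by -0.81 (SE 0.20) and Car9 by 0.89 (SE 0.22). Pde7b, a cAMP phosphodiesterase, was at 0.33 and 0.15 against -0.59 and -0.33 (0.69, SE 0.17). Hmcn1, the large matrix protein hemicentin 1, was at 0.56 and 0.30 against -0.25 and -0.28 in the cluster with the smallest p (0.70, SE 0.17). It is read by 77 clusters, of which 56 were higher in both pA AMO pairs and 2 lower, with a median of 0.21, and these share the RNA of 1 gene.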

How the data were processed

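The 12 arrays are Affymetrix Mouse Gene 1.0 ST, made from 100 ng of total RNA per the labels' protocols. The deposited values are log2 expression per transcript cluster. The submitters' processing notes name RMA and Affymetrix Expression Console as what the authors used, and versions are not given in the sources used here. RMA scales all arrays together, so a shift common to a whole array cannot be seen. The number of arrays limits the precision.

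Of 35556 clusters, 21789 have exactly 1 gene symbol in the platform annotation and were used; 1621 have several and 12146 are not listed. A gene enters a list by its brightest cluster. With 1 mean per group for the 6 groups, all 12 arrays were fitted in limma 3.58.1 in R 4.3.3 (6 residual degrees of freedom) and Benjamini-Hochberg adjustment over all 21789, threshold 0.05, and again with the replicate number as a block (5 residual degrees of freedom). Every pair of groups had a correlation of same-numbered deviations above 0.1 (0.20 to 0.61, 15 pairs), and all 12 arrays correlated best with their own replicate number, so the numbers were taken to pair the samples, from the data and not the labels. The scripts were tested on simulated data.

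Named genes are the 15 highest and 15 lowest by the smaller pair difference among clusters at or above the 40 percent mark, those with the smallest p, the PDGF genes and the ends of each of 29 lists; others in the text were chosen after their values were seen. The members and lists were chosen with earlier results of these data known. Listed genes without a single-symbol cluster were not analysed here. Alternatives are given in the closing section.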

Additional observations from a re-analysis of the deposited data

Results flagged for a closer look

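For 5 comparisons of list medians, both pairs with pA AMO lay on 1 side of 0 and both pairs with another AMO on the other side. In none of them was the difference between the AMOs tested. The protease list had pair medians above 0 with pA AMO and below 0 with the others. With control AMO these were -0.061 and -0.021, and the median of the mean differences was 0.002. The median of its genes' differences between the AMOs was 0.067 against control AMO and 0.12 against 5'ss AMO. Tendon markers were below 0 with pA AMO and above 0 with 5'ss AMO (-0.17), where the pair medians were 0.003 and 0.13. Macrophage and leukocyte markers were below 0 with pA AMO and above 0 with control AMO (-0.15). The pA AMO side of that result rests on 1 array, since its median of -0.075 turned to 0.025 without the untreated array of replicate 1. Schwann cell markers were below 0 with pA AMO and above 0 with 5'ss AMO (-0.16).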

How the results depend on the processing

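Counts of 0 clusters passing in limma, for PDGF-AA with pA AMO and for its differences from control and 5'ss AMO, stayed at 0 with the replicate block, without dim clusters, with all clusters, after repeated quantile normalization or median centring, with trend or robust moderation, and with fewer arrays in the fit. At an unadjusted p under 0.05 they were 517, 564 and 418, and 1286, 1863 and 1156 with the replicate block. This threshold with the block, and leaving arrays out with the block, were chosen after seeing the data. Leaving out each array in turn gave 0, except for 9 clusters in the difference from 5'ss AMO with the replicate block (range 0 to 9), without the PDGF-AA array of 5'ss AMO replicate 2 (smallest adjusted p 0.0134). Counts upward and downward in both pairs were 328 and 494 at a minimum of 0.2, 18 and 20 at 0.5, and 115 and 121 without dim clusters. The 39 genes named for their pair differences or smallest p kept their direction in all 156 differences without an array and 117 values under other settings. They were chosen from these same values, so their direction was largely fixed by the choice and this is no support for them. Genes named only as list members were not included. List medians moved by more than the spread between pairs in 70 values without an array or replicate and stayed within it in 104. A value without a whole replicate is the median of the remaining pair. It lies within that spread almost by construction, so the 104 are no measure of stability. In other settings 16 moved and 100 did not. No detection call was used, so clusters under the 40 percent mark cannot be told from background.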
